A study of Homo sapiens with 6 samples.

Results

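The RNA of 10 genes of the S100 family was followed across the 6 libraries of SUM159, an established human triple-negative breast cancer cell line. They were taken by symbol (S100A2, S100A3, S100A4, S100A6, S100A8, S100A9, S100A10, S100A13, S100A14 and S100A16), and all 10 were found among the 60675 genes of the table. The study asked which mRNAs differ when the gene of DAPK3, a death-associated protein kinase that acts on serine and threonine, is knocked out. It has 3 libraries labelled control (genotype DAPK3 WT) and 3 labelled KO (genotype DAPK3 KO), the latter from 1 knockout line, number 3. All cells were kept in Ham's F-12 medium with serum, HEPES, insulin and hydrocortisone. Separate cultures are not stated for the libraries of a label, and p-values then describe library-to-library spread that may be technical. In bulk RNA, fewer cells of a type and less RNA per cell cannot be told apart.

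S100 proteins are small calcium sensors, each built around a pair of EF-hand loops, that mostly work as dimers. Calcium opens a binding face through which they dock onto targets such as annexins and myosin, and several are also released from cells and act on surface receptors. Most of the genes lie side by side on chromosome 1, and different members mark different epithelial, mesenchymal and myeloid states, S100A2 being known from basal epithelium and S100A4 from mesenchymal and motile cells.

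The libraries did not divide by label in the RNA of the targeted gene. DAPK3 stood at 26.2, 10.5 and 26.1 CPM (counts over library size, scaled to 1000000) under the control label, always listed as R1, R2 and R3, and 13.1, 27.2 and 11.2 CPM under the KO label. The library labelled control R2 thus lay with KO R1 and KO R3, and the library labelled KO R2 with control R1 and control R3. An edited gene can keep its transcript, so this does not give a library's genotype, and no library was moved between groups. Whether the labels of control R2 and KO R2 were exchanged was not tested, and every value over all 6 libraries takes the labels as given. Totals ran from 16312184 to 22970823 expected counts. Each S100 gene is therefore given in every library, and the KO and control labels were compared both over all 6 libraries and without both R2 libraries. The DAPK3 level decided which libraries to leave out, so the second comparison is no independent evidence for the labels.

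Among the 7 members with enough counts to test, S100A4 and S100A2 had the widest log2 range between libraries. They lie close together, and sequence upstream of each is shown because they moved in opposite directions in the comparison without both R2 libraries. Both sequences are from RefSeq (GRCh38.p14, minus strand), run 5′ to 3′, and are counted back from −1 just before the annotated start. The S100A2 stretch (chr1:153565866-153566094) runs from −250 to −22 of its first listed start, and capitals mark a match to the AP-1 motif TGANTCA at −52. The S100A4 stretch (chr1:153545817-153545846) runs from −40 to −11, and capitals mark a match to the TATA box motif TATAAA at −31.
S100A2: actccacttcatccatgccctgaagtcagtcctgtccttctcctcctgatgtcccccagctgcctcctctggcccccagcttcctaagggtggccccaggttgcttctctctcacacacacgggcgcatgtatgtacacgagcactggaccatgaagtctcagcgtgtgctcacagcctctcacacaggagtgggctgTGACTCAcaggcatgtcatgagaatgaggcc
S100A4: tggctggggTATAAAtaggtcagacctctg
Along with both motifs, the GC box GGGCGG and the E-box CANNTG were searched on both strands of the 250 bases before each start. TATAAA was found in 10.7% and TGANTCA in 6.57% of 35116 such windows over all genes, GGGCGG in 42.6% and CANNTG in 61.8%. The 10 S100 genes have 16 windows, of which 5 held TATAAA and 2 held TGANTCA, the latter at the first listed start of S100A2 and at S100A3. GGGCGG was in 6 and CANNTG in 13 of the 16. The S100A8 windows with TATAAA overlap and hold the same site, so windows are not separate sites. A match describes the letters only.

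The members ranged widely in level. Per length, as TPM (counts over exon length, scaled to 1000000 per library) recomputed with GENCODE 29 exon lengths, S100A6 was the most abundant in every library, between 1908 and 3014 TPM. S100A16 lay between 442 and 739 TPM, S100A10 between 316 and 587, and S100A2 between 162 and 690, so that these 3 overlapped. S100A4 lay between 27.5 and 396 TPM, spanning the whole range of S100A13 (43.5 to 62.5 TPM), and S100A3 between 15.8 and 32.4 TPM. S100A9, S100A14 and S100A8 were near 0, with means of 3.297, 0.734 and 0.231 TPM. Summed over the 10 genes, S100 RNA varied little between libraries, at 1507, 1388 and 1340 CPM under the control label and 1324, 1288 and 1370 CPM under the KO label. Its composition varied more: the ratio of S100A2 to S100A4 in CPM was 0.711, 15.5 and 1.06 under the control label and 30.6, 1.55 and 21.6 under the KO label. Control R2 had a ratio near those of KO R1 and KO R3, and the labelled groups overlapped.

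**Figure D1:**
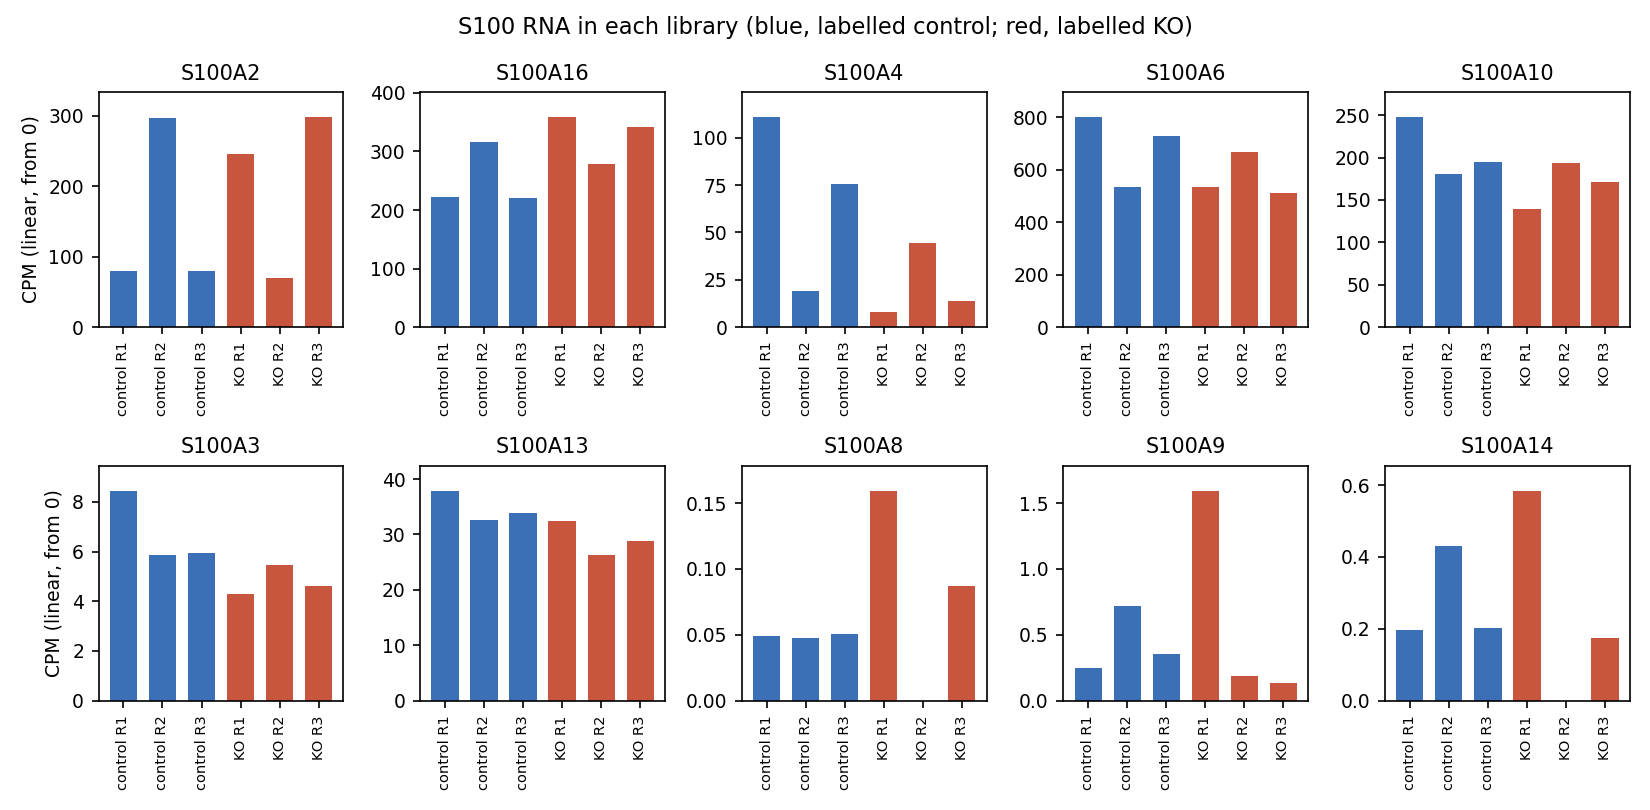
RNA of the 10 S100 genes in CPM (linear axes from 0, each gene on its own scale), 1 bar per library, blue for the 3 labelled control and red for the 3 labelled KO. S100A2 runs from 69.0 to 298 CPM, with control R2 and KO R2 on the side of the other label. S100A4 runs from 8.03 to 111 CPM, with control R2 low and KO R2 between control R1 and R3 and the low libraries. S100A8, S100A9 and S100A14 reach at most 1.59 CPM.

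Over all 6 libraries no S100 gene was called between the labels. edgeR's quasi-likelihood test called 0 of 14613 genes at a Benjamini-Hochberg adjusted p under 0.05 (0% called), with 1119 at an unadjusted p under 0.05, limma-voom called 0 and DESeq2 called 124. Of the 10 members 7 were tested and the other 3 fell below the filter on low counts. None of the 7 had an unadjusted p under 0.05, and DESeq2 and limma-voom called 0 of them. Their median log2 fold change of KO over control was −0.27, against 0.00 over all genes tested.

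Without both R2 libraries, edgeR called 4 of the 7 tested members, S100A2 and S100A16 higher and S100A4 and S100A6 lower in the libraries labelled KO. The background was high, with 27.3% of 14846 genes called, 12.2% higher and 15.2% lower, that is 4055 genes, against 2543 when control R1 was left out as well. The median log2 fold change was −0.52 over the 7 members and −0.02 over all genes tested, and the median size of the change regardless of sign was 0.64 and 0.38. S100A3, S100A10 and S100A13 were lower without passing the test.

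S100A2 was the member that rose most. It encodes a largely nuclear S100 protein of basal epithelial cells. Its gene (ENSG00000196754, GRCh38 chromosome 1, 153561108 to 153567890, minus strand) stood at 78.9, 297 and 79.8 CPM under the control label and 246, 69.0 and 298 CPM under the KO label. The values fall into a low trio (control R1, control R3, KO R2) and a high trio (control R2, KO R1, KO R3), with no library between 79.8 and 246 CPM. The labelled groups overlapped, at 152 ± 126 CPM in control and 204 ± 120 CPM in KO (SD, n = 3), and KO over control was 0.43 on the log2 scale (SE 0.70, edgeR adjusted p = 0.88). Without both R2 libraries the change was 1.76 on the log2 scale (SE 0.14, edgeR adjusted p = 0.00036).

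S100A16 rose with it, by a smaller amount. It is a broadly expressed member of the family. Its gene (ENSG00000188643, chromosome 1, 153606886 to 153613145, minus strand) stood at 222, 317 and 221 CPM under the control label and 359, 279 and 342 CPM under the KO label. KO R2 lay above control R1 and R3 and below the remaining libraries. The change was 0.37 on the log2 scale (SE 0.18, edgeR adjusted p = 0.67) over all 6 libraries and 0.64 (SE 0.11, edgeR adjusted p = 0.0066) without both R2 libraries.

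S100A4 was the member that fell most. It encodes metastasin, also called fibroblast-specific protein, which binds non-muscle myosin heavy chain and is a common mesenchymal marker. Its gene (ENSG00000196154, chromosome 1, 153543613 to 153550136, minus strand) stood at 111, 19.2 and 75.6 CPM under the control label and 8.03, 44.5 and 13.8 CPM under the KO label. Control R1 and R3 were highest and KO R2 came next, while control R2, KO R3 and KO R1 were low. The labelled groups overlapped, at 68.6 ± 46.3 CPM in control and 22.1 ± 19.6 CPM in KO (SD, n = 3). The change was −1.64 on the log2 scale (SE 0.81, edgeR adjusted p = 0.67) over all 6 libraries and −3.10 (SE 0.29, edgeR adjusted p = 0.00071) without both R2 libraries.

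S100A6 and S100A10, both abundant, were also lower. S100A6, or calcyclin, is a growth-associated member that binds annexins and the calcyclin-binding protein CACYBP. Its gene (ENSG00000197956, chromosome 1, 153534599 to 153536244, minus strand) stood at 801, 536 and 728 CPM under the control label and 534, 669.6 and 511 CPM under the KO label. Control R2 lay with KO R1 and R3, and KO R2 was nearer to control R1 and R3. Without both R2 libraries its change was −0.56 on the log2 scale (SE 0.12, edgeR adjusted p = 0.013). Leaving out control R1 as well gave −0.49 (edgeR adjusted p = 0.076), so that call rests on control R1. The replicate block also ended it, with an edgeR adjusted p of 0.062.

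S100A10, or p11, is the calcium-insensitive partner of annexin A2 and helps to hold plasminogen and its activator at the cell surface. Its gene (ENSG00000197747, chromosome 1, 151982915 to 151994390, minus strand) stood at 248, 180.1 and 195 CPM under the control label and 139, 194 and 172 CPM under the KO label. KO R2 and control R3 were nearly level, and the trios did not overlap, although the gap between them was narrow. Without both R2 libraries the change was −0.52 on the log2 scale (SE 0.16, edgeR adjusted p = 0.052). Over the alternatives to that comparison the adjusted p ran from 0.0088 to 0.25. It was called lower with upper-quartile scaling (edgeR adjusted p = 0.034), with a filter at 1 CPM (edgeR adjusted p = 0.043) and by DESeq2 (adjusted p = 0.023), and in the comparisons that also left out control R3 (edgeR adjusted p = 0.027) or KO R3 (edgeR adjusted p = 0.0088).

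**Figure D2:**
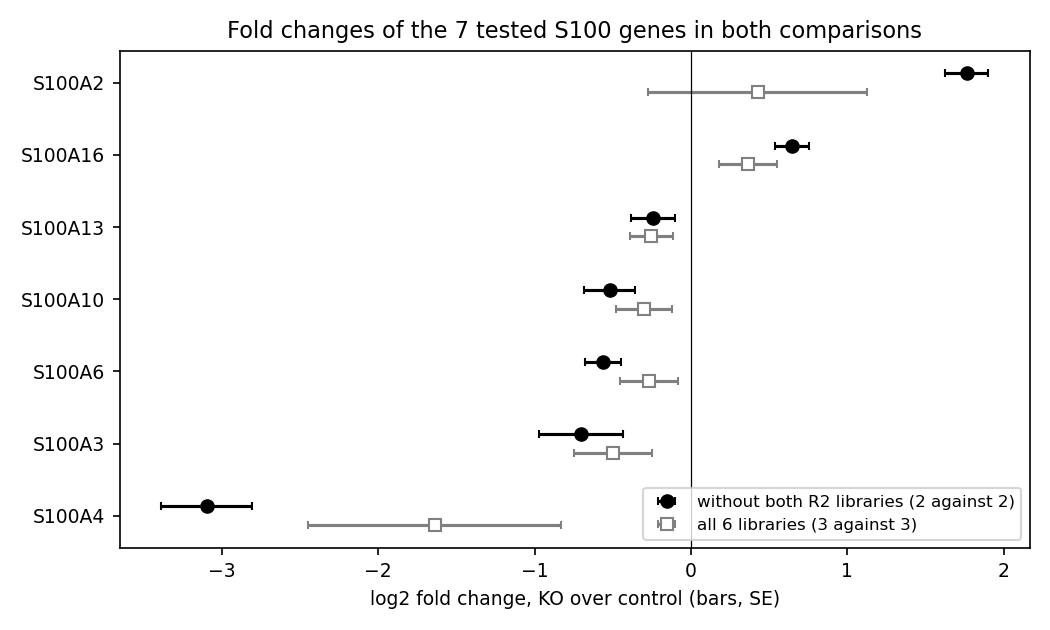
log2 fold change of KO over control with its standard error for the 7 tested S100 genes, filled circles without both R2 libraries and open squares over all 6 libraries. S100A2 at 1.76 and S100A4 at −3.10 stand at the ends, and the 6-library values of both lie nearer to 0 with wider errors.

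S100A3 and S100A13 did not overlap between the labels, by narrow gaps, and neither was called. S100A3 is a cysteine-rich member known from the hair cuticle, and its gene (ENSG00000188015, chromosome 1, 153547329 to 153549372, minus strand) lies within the span of S100A4 with no shared exon bases. It stood at 8.45, 5.88 and 5.94 CPM under the control label and 4.305, 5.44 and 4.60 CPM under the KO label. S100A13 takes part in the unconventional export of interleukin 1 alpha and fibroblast growth factor 1. Its gene (ENSG00000189171, chromosome 1, 153618787 to 153631360, minus strand) stood at 37.9, 32.6 and 33.9 CPM under the control label and 32.5, 26.2 and 28.9 CPM under the KO label. Both were lower in all 3 KO libraries than in any control library, although S100A13 was nearly level in KO R1 and control R2. They are 2 of the 7 members tested, and 13.8% of all genes tested had labelled groups that did not overlap. The differences were small and did not pass the test, at −0.50 (SE 0.25) for S100A3 and −0.25 (SE 0.14) for S100A13 over all 6 libraries, with edgeR adjusted p = 0.67 and 0.69. S100A13 shares 235 exon bases with S100A1 on the opposite strand and 536 with the transcript RP1-178F15.5 on its own, which had at most 43.1 and 42.2 expected counts. Without a stated strand setting their reads cannot be fully separated.

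S100A8, S100A9 and S100A14 were barely detected. S100A8 and S100A9 form calprotectin, the calcium-binding complex of neutrophils, monocytes and stressed keratinocytes, and S100A14 is an epithelial member. S100A8 (ENSG00000143546, chromosome 1, 153390032 to 153391188, minus strand) had 1, 1 and 1 expected counts under the control label and 3, 0 and 2 under the KO label. S100A9 (ENSG00000163220, chromosome 1, 153357854 to 153361027, plus strand) had 5, 15 and 7 under the control label and 30, 3 and 3 under the KO label. S100A14 (ENSG00000189334, chromosome 1, 153614255 to 153616986, minus strand) had 4, 9 and 4 under the control label and 11, 0 and 4 under the KO label. KO R1 was the highest library for all 3, and KO R2 had 0 counts of S100A8 and S100A14. These counts gave no test in either comparison. S100A9 passed the filter when 1 more library, control R1, control R3 or KO R3, was left out, and was called without KO R3 alone, with a change of 2.37 on the log2 scale (SE 0.75, edgeR adjusted p = 0.023), a value that rests on KO R1 as the lone KO library.

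By DAPK3 level, 5 of the 10 members, all among the 7 tested, took separate ranges in the 3 libraries lowest and the 3 highest in DAPK3. S100A2 and S100A16 were above, and S100A4, S100A6 and S100A10 below, in the 3 libraries at 10.5 to 13.1 CPM of DAPK3. Of all genes tested 43.5% divided in this way. For the 4 called members, the left-out libraries were set against the pairs of control R1 and R3 and of KO R1 and R3. On the log2 CPM scale, control R2 was nearer to the KO pair and KO R2 nearer to the control pair in S100A2, S100A4 and S100A6. In S100A16 control R2 was nearer to the KO pair, but so was KO R2. Of the 4055 genes called without both R2 libraries, 68.3% crossed in both libraries.

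**Figure D3:**
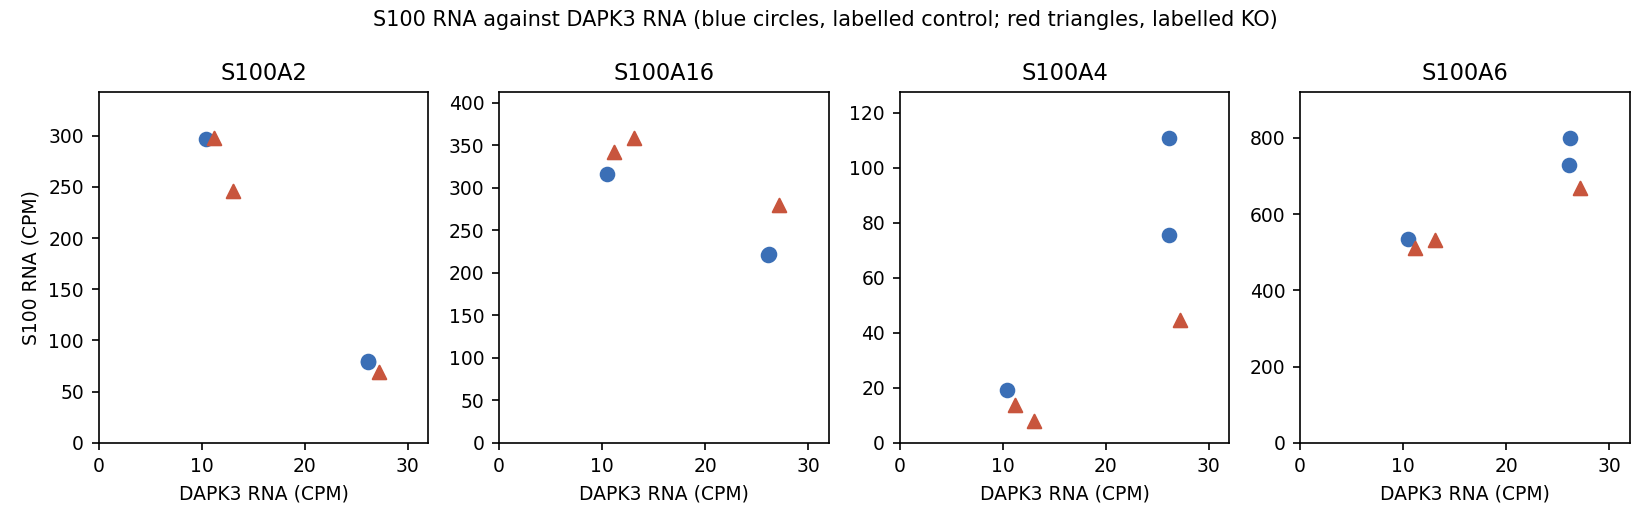
S100 RNA against DAPK3 RNA, both in CPM on linear axes from 0, for S100A2, S100A16, S100A4 and S100A6, 1 point per library, blue circles labelled control and red triangles labelled KO. The points form 2 clusters, at 10.5 to 13.1 and at 26.1 to 27.2 CPM of DAPK3, each holding libraries of both labels, and within each cluster the KO triangles of S100A4 lie below the control circles.

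Libraries of both labels could also be compared at a similar DAPK3 level. On the log2 CPM scale with a prior count of 2, S100A4 in KO R2 lay at −1.04 from the mean of control R1 and R3, and the mean of KO R1 and R3 lay at −0.86 from control R2. S100A2 differed by −0.20 and −0.13 in the same pair of contrasts, far less than its gap between the trios. S100A16 differed by 0.33 and 0.14, S100A6 by −0.19 and −0.04, S100A10 by −0.18 and −0.22, S100A3 by −0.37 and −0.39 and S100A13 by −0.45 and −0.09. All 7 kept their sign across both contrasts, 6 lower and S100A16 higher in KO. Of all genes tested 62.2% kept their sign and 30.7% were lower in both. These contrasts have 1 library on one side, so they are descriptions. With the log2 CPM of DAPK3 as a covariate over all 6 libraries, the label term of S100A4 was −1.15 (SE 0.28, edgeR adjusted p = 0.14) and that of S100A16 was 0.28 (SE 0.09, edgeR adjusted p = 0.20), while that of S100A2 was 0.04 (SE 0.10, edgeR adjusted p = 0.86). That model called 0 of 14613 genes by edgeR, the tool it was run in, with 2459 at an unadjusted p under 0.05.

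All 10 members lie on chromosome 1, among 17 S100 genes spread over 1649 kb. In order along the chromosome, S100A6 and S100A4 were called lower without both R2 libraries, and S100A2 and S100A16 higher. S100A3, which comes after S100A4 and before S100A2 in this order, and S100A13, beyond S100A16, were not called. S100A4 and S100A2, with log2 fold changes of −3.10 and 1.76, start 17.8 kb apart by the gene spans given above. S100A3 lies within the span of S100A4, so it is not between these gene-span starts. The starts used for the sequences shown above are others. They lie just below position 153545807 for S100A4 and 153565845 for S100A2, and S100A3 is between them. The 250 bases before that S100A4 start overlap GENCODE 29 exons over 79 bases. Of 57 other protein-coding genes in or within 200 kb of the S100 span, 35 had 0 counts in every library and 8 were tested. Without both R2 libraries 2 of these 8 were called higher and 4 lower, with a median log2 fold change of −0.28. All genes tested had a median of −0.02, with 12.2% called higher and 15.2% lower. SLC27A3, a fatty acid transporter, was at −1.80 (SE 0.34), NPR1, a natriuretic peptide receptor, at −3.24 (SE 0.71), CHTOP, an mRNA export factor, at 0.59 (SE 0.13) and INTS3, an Integrator subunit, at −0.47 (SE 0.11), with edgeR adjusted p of 0.0097, 0.016, 0.016 and 0.023. Of 25 genes of the epidermal differentiation complex and the fused S100 type, which lie within the same region and serve skin barrier formation, 17 had 0 counts throughout and 24 never reached 10 counts. IVL, LOR, SPRR1A and SPRR1B were among those at 0.

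**Figure D4:**
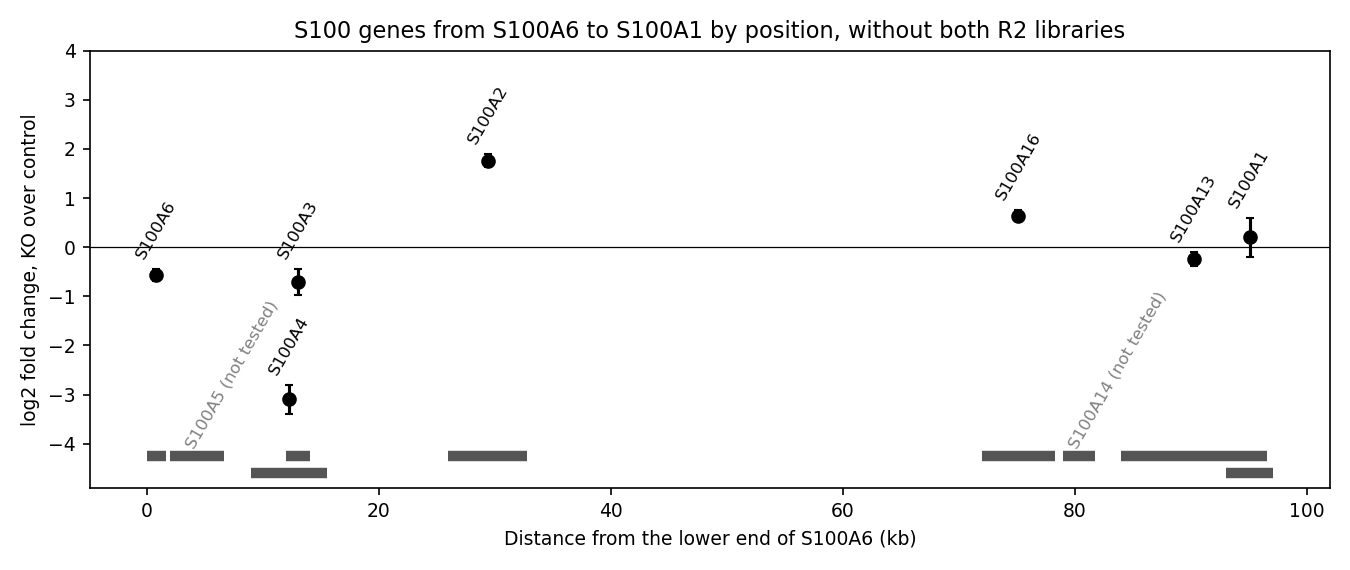
S100 genes from S100A6 to S100A1 by distance in kb, with gene bodies as grey bars (S100A4 and S100A1 on the lower row) and, for tested genes, the log2 fold change of KO over control with its standard error without both R2 libraries. By their gene spans, S100A4 at −3.10 and S100A2 at 1.76 start 17.8 kb from each other on opposite sides of 0.

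Most other S100 genes of the table were not detected. Of 11, 8 had 0 counts in all libraries, including S100A7, S100A12 and S100B, and 3 were tested. S100A11, which binds annexin A1, stood at 243, 327 and 206 CPM in control and at 310, 271 and 330 CPM under the KO label, and was called higher without both R2 libraries (log2 fold change 0.50, SE 0.13, edgeR adjusted p = 0.026). S100A11 was abundant, with a mean of 1481 TPM. Its values in control R2, KO R1 and KO R3 all lay above the others, a division by DAPK3 level seen in 43.5% of all genes tested. S100P stood out in 1 library, with 15.3 CPM in KO R1 against 1.76 to 5.43 CPM in the others, and was not called (1.45, SE 0.65, edgeR adjusted p = 0.14). S100A1 varied little, between 1.22 and 1.87 CPM.

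Among receptors reported for released S100 proteins, 3 of 6 tested were called lower and 0 higher without both R2 libraries, and the median log2 fold change was −0.82. Over all genes tested 15.2% were called lower and 12.2% higher, with a median of −0.02. ALCAM, an adhesion molecule that S100B can bind, stood at 63.2, 7.98 and 53.5 CPM under the control label and 5.69, 49.0 and 7.81 CPM under the KO label (log2 fold change −3.12, SE 0.20). CD33, a myeloid sialic acid receptor that binds S100A9, was at −4.56 (SE 0.41), and TLR4, the toll-like receptor through which S100A8 and S100A9 signal, at −1.07 (SE 0.13), with edgeR adjusted p of 0.00018, 0.00059 and 0.0020 for the 3 genes in this order. In ALCAM, as in S100A4, control R2 was low. KO R2 lay close to control R3 in ALCAM, while in S100A4 it lay between control R1 and R3 and the low libraries. AGER, encoding RAGE, the best known S100 receptor, was low at 3.24 to 5.33 CPM and was not called (−0.57, SE 0.28, edgeR adjusted p = 0.17).

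Of 16 tested genes for intracellular and export partners, 3 were called higher and 3 lower without both R2 libraries. The median log2 fold change of the 16 was −0.15. All genes tested had a median of −0.02, with 12.2% called higher and 15.2% lower. ANXA6, a membrane-binding annexin, fell by 3.33 on the log2 scale (SE 0.28), AHNAK, a giant scaffold that binds S100A10 with annexin A2, by 1.16 (SE 0.15) and MYH9, the myosin heavy chain bound by S100A4, by 0.64 (SE 0.12). IL1A, the cytokine exported with S100A13, was higher at 2.90 (SE 0.38). ANXA2, the partner of S100A10, did not pass the test, at 0.07 (SE 0.20, edgeR adjusted p = 0.83). Over all 6 libraries edgeR called 0 of the 16, with ANXA6 at −1.80, AHNAK at −0.51, MYH9 at −0.06 and IL1A at 1.34. In MYH9 the highest library was KO R2, at 2487 CPM. Of 6 tested genes for plasminogen activation, in which S100A10 takes part, 1 was called higher and 2 lower without both R2 libraries. The higher one was PLAT, the tissue activator (0.53, SE 0.12), and PLGRKT, a plasminogen receptor, was among the lower (−0.86, SE 0.25). Over all 6 libraries PLAT was at 0.05 and PLGRKT at −0.13, and edgeR called 0 of these 6 genes.

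The genes whose pattern over the 6 libraries was closest to S100A4 and S100A2 were found among 12070 candidates. They were ranked by the root mean square difference of centred log2 CPM. Nearest to S100A4 was ANXA6 (0.10), at 85.4, 13.05 and 59.8 CPM under the control label and 5.37, 31.1 and 9.03 CPM under the KO label. TUBA1A, an alpha-tubulin gene (0.19), and SPTLC3, encoding a serine palmitoyltransferase subunit (0.20), came next. Like S100A4, these 3 genes were lower in KO R2 than in control R1 and R3, and lower in KO R1 and R3 than in control R2. They were picked for closeness over these same libraries, so the shared order follows from the choice and is no separate result. Nearest to S100A2 were BDKRB2, a bradykinin receptor gene (0.09), TINAGL1, encoding a matrix protein (0.13), and KAZN, encoding the cornified envelope and desmosome protein kazrin (0.15). BDKRB2 stood at 7.04, 28.3 and 8.40 CPM under the control label and 26.0, 6.68 and 31.9 CPM under the KO label. S100A9 and S100A14 also had wide ranges on that scale, from 63 and 32 counts in all. Their nearest genes were C1S, C1R and CDRT1, at 0.43 to 0.56, and LA16c-313D11.12, RASA4 and SCNN1B, at 0.29 to 0.34.

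**Figure D5:**
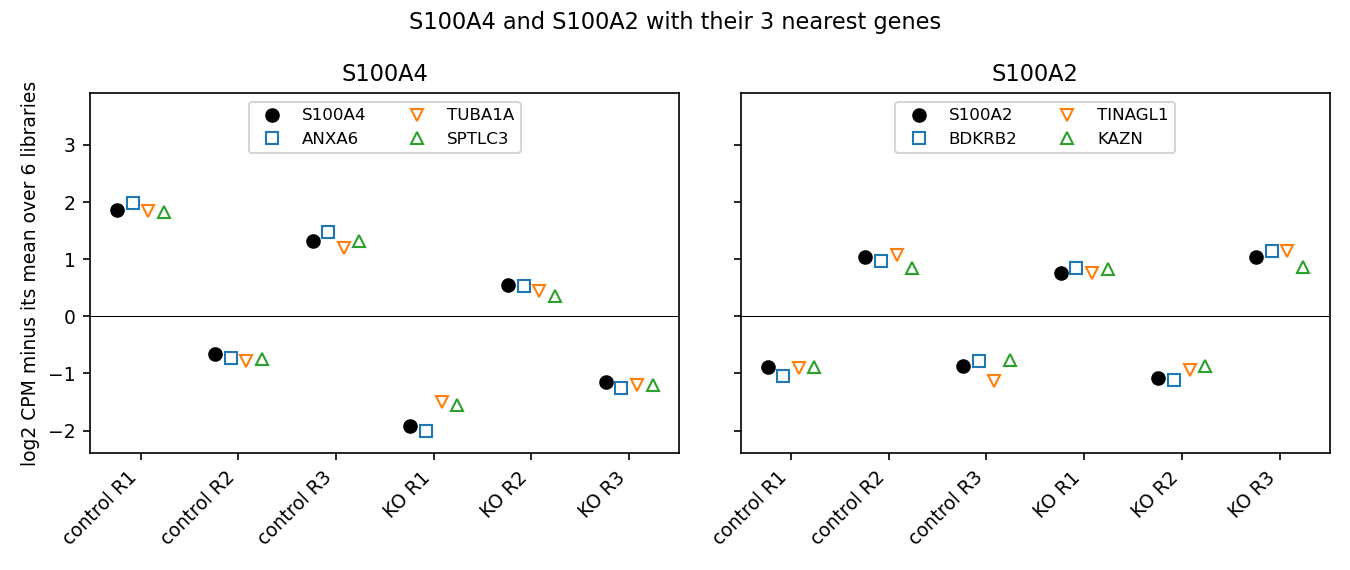
log2 CPM minus its mean over the 6 libraries for S100A4 with ANXA6, TUBA1A and SPTLC3, and for S100A2 with BDKRB2, TINAGL1 and KAZN, 1 column per library and 1 symbol per gene. In every library the symbols lie close together, as the genes were picked for this, and for S100A4 KO R2 sits between the high control libraries and the low trio.

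Markers of other cell types were checked because S100A4, S100A8 and S100A9 are also made by stromal and myeloid cells. The summed level of 8 stromal and endothelial markers, most of it COL1A1, ran from 77.1 to 667 CPM in control, lowest in control R2. In KO it ran from 61.7 to 567 CPM, highest in KO R2. Like S100A4 it was low in control R2, KO R1 and KO R3. Unlike S100A4, it was higher in KO R2 (567 CPM) than in control R1 (533 CPM). Of 5 tested, 3 were lower without both R2 libraries (COL1A1, COL3A1 and PDGFRB), DCN and PECAM1 were not called, and CDH5 was at 0 throughout. That comparison called 12.2% of all genes tested higher and 15.2% lower. The summed level of 14 myeloid and other blood markers, most of it CD68, lay between 11.3 and 13.6 CPM in control. In KO it lay between 12 and 15.3 CPM, with CSF3R, MPO and ELANE among those at 0 in all libraries. PTPRC, the pan-leukocyte gene, stood at 2.98, 0.0478 and 2.92 CPM under the control label and 0.106, 3.28 and 0 CPM under the KO label, and was the 1 called of 3 tested, lower. The 10 differentiated keratinocyte markers summed to 16.2 to 19.1 CPM in control and 16.9 to 20.0 CPM in KO, nearly all of it KRT10, with KRT1, KRT2, KLK5 and KLK7 at 0 and 0 of 1 tested called by edgeR. The 9 luminal breast markers summed to 476 to 571 CPM in control and 522 to 573 CPM in KO, with PGR and ELF5 at 0. Of 5 tested, KRT18 was higher and KRT8 lower without both R2 libraries. Mitochondrial transcripts summed to 44266 to 69056 CPM in control and 41501 to 53848 CPM in KO, with 0 of 13 called by edgeR. The part of these markers in the S100 differences was not tested.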

How the data were processed

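Poly(A) RNA of 6 SUM159 libraries was sequenced. The table the authors deposited holds RSEM expected counts by gene, 1 column per library and not normalized. The submitters' processing notes name GRCh38 as the build and RSEM, Bowtie2 and edgeR as tools. Their versions, the annotation release and the strandedness are not given in the sources used. Values were rounded to whole numbers and tested with edgeR 4.0.16 (R 4.3.3), quasi-likelihood, TMM factors and the filterByExpr filter, with p-values adjusted over all genes tested. CPM are rounded counts over the library total times its TMM factor. The standard error is the log2 fold change over the root of its F statistic. TPM used merged GENCODE 29 exon lengths, found for 57055 of 60675 genes, in place of RSEM's effective lengths. All pairs of libraries differed beyond sampling noise (lowest chi-square per degree of freedom 11.9).

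Members, gene lists and the comparison without both R2 libraries were chosen with earlier results of these data known. Named are the 10 members, DAPK3 and up to 4 called genes a list by smallest p. Where none was called the 2 most expressed were planned, but not all of these are named. Also named are the 3 nearest patterns of the 4 members with the widest range among genes of mean log2 CPM of at least 1. S100A1, S100P, AGER, ANXA2 and the markers at 0 were named after their values were seen. Other scalings, filters, tests (DESeq2 1.42.0, limma 3.58.1), a replicate block, a DAPK3 covariate and each library left out were tried. The test was checked on simulated counts. Some genes of the lists are not reported here.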

Additional observations from a re-analysis of the deposited data

How the results depend on the processing

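None of the 7 tested S100 genes changed direction under any alternative fit tried. The change of S100A2 over all 6 libraries, however, went as low as 0.03 on the log2 scale. In both contrasts at a similar DAPK3 level S100A2 was lower in KO, at −0.20 and −0.13. Over all 6 libraries, the count of genes called stayed at 0 in every edgeR and limma-voom setting, with 0 to 0 when each library was left out, and DESeq2 called 124; no member was called in any of them. Without both R2 libraries 4055 genes were called, and 2543 to 3700 when 1 more library was left out, the lowest without control R1, where control R3 stands alone and is assumed to vary like the KO pair. Members called ran from 3 to 6 in the same settings. S100A2, S100A4 and S100A16 stayed called in all 12 alternatives, with log2 fold changes of 1.61 to 1.91, −3.56 to −2.75 and 0.62 to 0.68. S100A6 was lost in 2 and S100A10 gained in 5 of 12. Same-numbered libraries deviated in opposite directions from their label means (correlations −0.65, −0.85 and −0.70). Control R2 and KO R2 each lay with the other label, and deviations within a label cancel out, which can alone give such signs. These correlations therefore cannot decide whether the numbers pair the libraries. The replicate block called 0 genes over all 6 libraries and 2705 genes, 3 of them members, without both R2 libraries. S100A8, S100A9 and S100A14 are limited by depth, at 8, 63 and 32 counts in all.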
